A study of Mus musculus with 7 samples.

Results

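The genes of phase II conjugation were followed in the nasal tissue of mice that inhaled diesel exhaust particles (DEPs). They are the genes for the glutathione S-transferases (GSTs: alpha, mu, pi, theta, omega, zeta, kappa and microsomal), the UDP-glucuronosyltransferases (UGTs: families UGT1, UGT2 and UGT3) and the sulfotransferases (SULTs). Members were chosen by the start of the RefSeq symbol that the transcript accession of a probe gives (Gsta, Gstm, Gstp, Gstt, Gsto, Gstz, Gstk, Mgst, Ugt1, Ugt2, Ugt3 or Sult), with no measured value in the rule. Of 70 RefSeq symbols that fit the rule, 58 genes had a probe, 80 probes in all, among 32095 names and 39429 probes on the array. Of the 58 genes, 41 were bright enough to be tested, among 20664 names tested.

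All 32 mice were female BALB/c, 6 weeks of age, and the DEP groups inhaled 100 µg/m3 of nebulized DEPs for 1 h a day on 5 days a week over 4 weeks or 8 weeks. The control mice received nebulized saline, as the study's methods describe for 4 weeks. RNA was taken from the nasal cavity (septum and turbinates) and put on 2-colour Agilent arrays, with 4 arrays for 4 weeks and 3 arrays for 8 weeks. Each array carried RNA of DEP mice in Cy5 and of control mice in Cy3, and the sources used here give neither the number of mice behind an array nor any pooling of control RNA. The dyes were never swapped, so a dye effect of a probe cannot be told apart from the exposure within a time, although a dye effect that is the same on all arrays cancels in the difference between the times. The arrays of 4 weeks lay on 1 slide and those of 8 weeks on another, so the exposure time, the slide and the longer housing of the mice cannot be told apart. The arrays are labelled as replicates with no statement that they came from separate animals, so p-values measure the spread between these arrays, which may be technical.

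Conjugating enzymes attach a polar group to a foreign or endogenous compound so that it can leave the cell. GSTs add glutathione to electrophiles such as the epoxides and aldehydes formed from smoke and exhaust, UGTs add glucuronic acid from UDP-glucuronic acid, and SULTs add sulfate from PAPS. The nasal mucosa, its sustentacular cells and Bowman's glands above all, is rich in such enzymes, which act on inhaled chemicals and on odorants. Many of these genes respond to the regulators Nrf2, which acts at the antioxidant response element (ARE), and AhR, which acts at the xenobiotic response element (XRE).

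The 250 bases before a RefSeq transcript start (GRCm38.p6, a C57BL/6J reference) are shown for 4 members, *Gstm1* and *Gsto1* because their ratios moved together at both times, and *Gsta3* and *Mgst1* because both hold the ARE core and their ratios differed in direction at 4 weeks. Capitals mark the ARE core TGACNNNGC or the XRE core GCGTG on either strand. The *Gstm1* window is chr3:108017974-108018223 on the minus strand, with an XRE core at bases -76 to -72 before the start. The *Gsto1* window is chr19:47854723-47854972 on the plus strand and holds neither core. The *Gsta3* window is chr1:21240335-21240584 on the plus strand, with an ARE core at bases -121 to -113. Its transcript start, at base 21240585, lies 20 bases inside the outer end of the annotated gene, while the starts of the other 3 windows lie at the outer end. The *Mgst1* window is chr6:138140277-138140526 on the plus strand, with an ARE core on the opposite strand at bases -56 to -48.
Gstm1: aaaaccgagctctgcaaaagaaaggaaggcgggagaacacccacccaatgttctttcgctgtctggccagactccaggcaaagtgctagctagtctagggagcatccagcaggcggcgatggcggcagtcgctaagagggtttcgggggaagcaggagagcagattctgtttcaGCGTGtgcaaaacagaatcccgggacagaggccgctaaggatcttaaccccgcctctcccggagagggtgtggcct
Gsto1: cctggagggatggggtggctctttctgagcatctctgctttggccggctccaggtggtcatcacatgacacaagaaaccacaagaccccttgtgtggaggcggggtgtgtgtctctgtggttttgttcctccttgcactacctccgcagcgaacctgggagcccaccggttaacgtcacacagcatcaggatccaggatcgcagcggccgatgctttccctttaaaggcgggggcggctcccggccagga
Gsta3: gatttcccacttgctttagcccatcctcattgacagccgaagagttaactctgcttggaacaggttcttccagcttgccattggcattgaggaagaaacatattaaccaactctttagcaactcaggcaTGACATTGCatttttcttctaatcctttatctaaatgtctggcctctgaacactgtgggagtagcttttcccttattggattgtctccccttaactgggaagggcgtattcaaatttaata
Mgst1: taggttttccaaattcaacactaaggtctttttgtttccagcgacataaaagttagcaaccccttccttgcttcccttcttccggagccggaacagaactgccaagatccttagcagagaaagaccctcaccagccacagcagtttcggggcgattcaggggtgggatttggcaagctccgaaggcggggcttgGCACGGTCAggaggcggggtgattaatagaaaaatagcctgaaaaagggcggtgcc

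Of the 41 tested members, 36 had such a window, 22 of them before the outer end of the gene and 14 before a start inside it. The ARE core lay in 3 of them (*Gsta3*, *Gstm5* and *Mgst1*), against 10.14% of 27025 promoters. The XRE core lay in 6 (*Gsta2*, *Gstm1*, *Gstm5*, *Gstp1*, *Mgst3* and *Sult1d1*), against 28.3% of all promoters. These are matches of letters in a short window and say nothing of binding.

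The number of probes well above background ranged from 18601 to 25069 over the arrays for DEP RNA and from 16985 to 26927 for control RNA, without any saturated spot. Log2 ratios over all tested probes correlated at r = 0.439 to 0.491 between arrays of 4 weeks, at 0.71 to 0.876 between arrays of 8 weeks and at 0.0869 to 0.286 between times (across probes, which are not independent). The defining markers *Omp* (mature olfactory neurons), *Cyp2g1* (sustentacular cells) and *Foxj1* (ciliated respiratory cells) exceeded background clearly for both RNAs on each of the 7 arrays. The 17 members that were too dim to test were *Gstp3*, *Gstt4*, *Ugt2b1*, *Ugt2b5*, *Ugt2b34*, *Ugt2b35*, *Ugt2b36*, *Ugt2b38*, *Sult2a1*, *Sult2a2*, *Sult2a3*, *Sult2a4*, *Sult2a6*, *Sult2a7*, *Sult3a1*, *Sult3a2* and *Sult6b2*, so most of the Ugt2b and Sult2a genes were outside the range of this measurement.

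The log2 ratio of DEP over control is the value given throughout, as the mean ± SD over arrays, and a gene was called at an adjusted p of at most 0.05 by limma, adjusted over all probes tested. Rose and fell mean higher and lower than the control RNA of the same time. A fall at 8 weeks is therefore not a drop from the level of 4 weeks. After 4 weeks, 13 members were higher in DEP tissue and 9 were lower, against 21.6% and 16.5% of all genes tested (22 members and 38.1% of all genes in either direction). After 8 weeks, 4 were higher and 20 were lower, against 20.3% and 17% of all genes (24 members and 37.3% in either direction). The ratio differed between the times for 23 members, 18 of them lower and 5 higher at 8 weeks, against 16.1% and 14.9% of all genes (30.9% in either direction). The median log2 ratio of the 41 members was 0.03 at 4 weeks and -0.19 at 8 weeks, and that of all genes was 0.00 and 0.01. Of the members called at 4 weeks, 21 of 22 had the same sign on every array they were measured on, as did all 24 called at 8 weeks. The calls were made from these same arrays, so this agreement follows largely from the selection and is no separate support.

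Most of these changes were small. The study selected genes by a fold change of 2 or more and a p no higher than 0.01, and these cut-offs were applied here to limma's unadjusted p. At 4 weeks 0 of 41 members passed them, while 0.934% of all genes were higher and 0.368% lower (1.3% in either direction). At 8 weeks 3 members passed, *Mgst1*, *Ugt1a10* and *Ugt1a6b*, all lower, while 2.1% of all genes were higher and 0.847% lower (2.94% in either direction). In the difference between the times *Gstm1*, *Gsto1* and *Ugt1a6b* passed, all lower at 8 weeks, while 1.9% of all genes were higher and 1.16% lower (3.06% in either direction). With median centring *Gsto1* also passed at 8 weeks, and *Gstm3* and *Sult4a1* in the difference. With the processed signals of the scanner software 7 members passed in the difference, with *Gstm3*, *Sult6b1*, *Ugt1a10* and *Ugt1a6a* added, all lower at 8 weeks. The direction at 8 weeks rests in part on the scaling. With median centring in place of loess, which moved the median of all genes to -0.11, 32 members were lower at 8 weeks, against 33.3% of all genes, and the share of higher genes among all called genes was 27% in place of 54.6%. In bulk tissue, fewer cells of a type and less RNA per cell cannot be told apart.

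**Figure D1:**
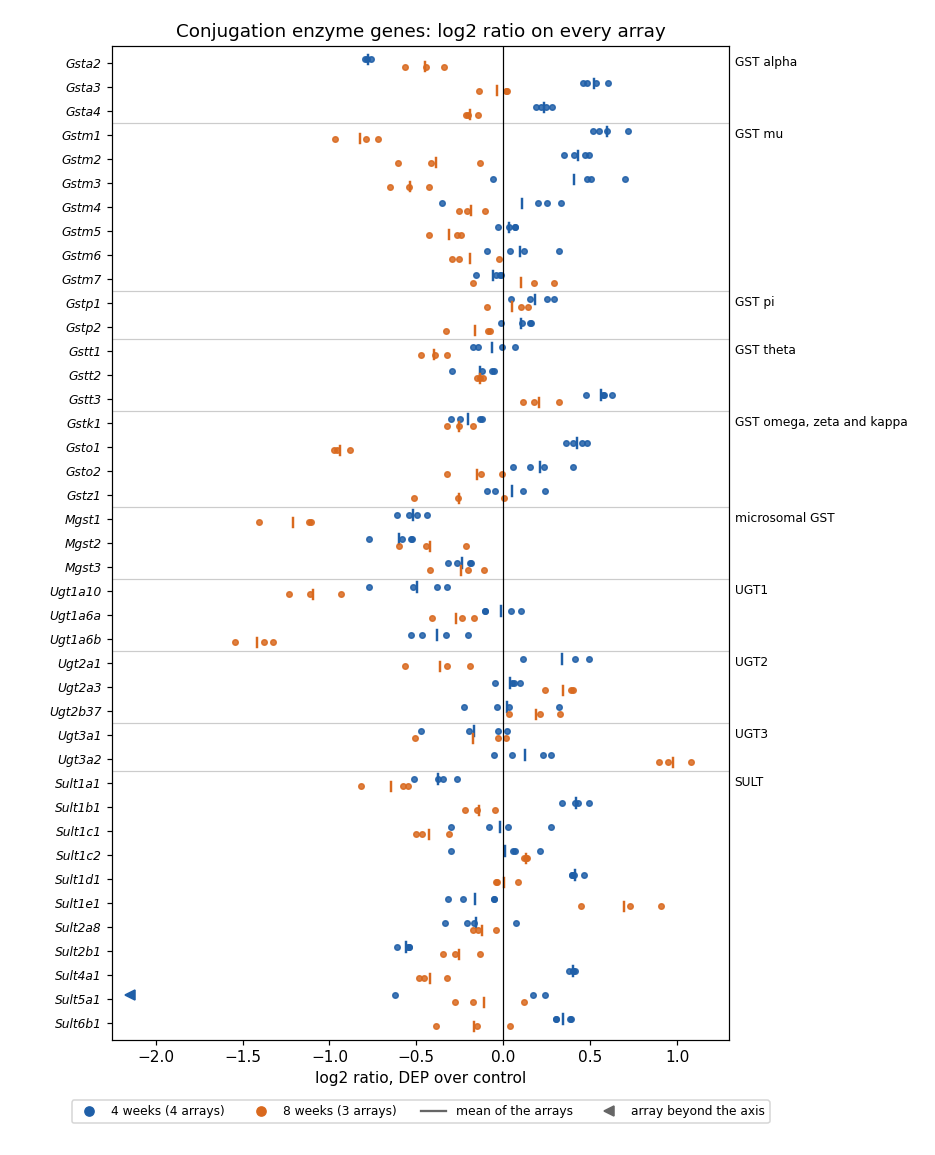
Log2 ratio of DEP over control (x axis) of the 41 tested conjugation genes, 1 row per gene and grouped by enzyme class, with 1 point per array and a bar at the mean. Mu-class and omega-class points at 4 weeks lie mostly right of 0 and those of 8 weeks left of it, while the microsomal GSTs lie left of 0 at both times. Replicate 2 of Sult5a1 at 4 weeks (-7.47) is drawn as an arrow beyond the axis, without a bar for that mean.

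Among the alpha-class GSTs, which act on lipid peroxidation products and other electrophiles, 2 of 3 tested genes rose at 4 weeks and 1 fell, and at 8 weeks none rose and 2 fell. Over all genes tested, 21.6% rose and 16.5% fell at 4 weeks, and 20.3% rose and 17% fell at 8 weeks. The counts by class rest on few genes and were not tested against these shares. *Gsta3*, whose mouse enzyme conjugates the epoxide of aflatoxin, had log2 ratios of 0.60, 0.53, 0.48 and 0.46 on the 4 arrays of 4 weeks and -0.14, 0.02 and 0.02 on the 3 arrays of 8 weeks. The times did not overlap. It rose at 4 weeks by 0.52 ± 0.06 (adjusted p = 0.00023), a 1.43-fold change, and its ratio at 8 weeks was -0.03 ± 0.09 (adjusted p = 0.69). The other *Gsta3* probe gave 0.55 at 4 weeks and 0.22 at 8 weeks, the latter with an adjusted p of 0.025, so the probes differed in the 8-week call.

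*Gsta4*, the enzyme for 4-hydroxynonenal, had ratios of 0.25, 0.21, 0.28 and 0.19 at 4 weeks and of -0.15, -0.22 and -0.20 at 8 weeks. Every array of 4 weeks was above 0 and every array of 8 weeks below it. The 4-week rise was 0.23 ± 0.04 (adjusted p = 0.0043), and the adjusted p was 0.13 with median centring. The 8-week fall was -0.19 ± 0.04 (adjusted p = 0.018), with an adjusted p of 0.11 without replicate 2 and 0.063 without replicate 3 of 8 weeks. *Gsta2* went the other way at 4 weeks, with ratios of -0.78, -0.80 and -0.76 on replicates 2, 3 and 4, the spot of replicate 1 being left out as not uniform. It fell by 0.78 ± 0.02 (n = 3, adjusted p = 0.00017) at 4 weeks and by 0.45 ± 0.11 (adjusted p = 0.0017) at 8 weeks, where the arrays gave -0.56, -0.44 and -0.34. Probes of the alpha class can share sequence between close paralogs, and which *Gsta* transcripts they bind was not tested.

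The mu-class GSTs, a cluster of neighbouring genes on chromosome 3 whose enzymes conjugate epoxides and quinones, were called in opposite directions at the times. At 4 weeks 3 of 7 tested genes rose and none fell, against 21.6% and 16.5% of all genes. At 8 weeks none rose and 4 fell, against 20.3% and 17% of all genes. *Gstm1* (chr3:108012250-108017973) had ratios of 0.72, 0.60, 0.55 and 0.51 at 4 weeks and of -0.79, -0.72 and -0.97 at 8 weeks. The sets of arrays lie on opposite sides of 0. It was higher than control by 0.59 ± 0.09 (adjusted p = 0.00026), 1.51-fold, at 4 weeks. At 8 weeks it was lower than control by 0.83 ± 0.13 (adjusted p = 7.86e-05), 1.77-fold. The difference between the times was -1.42 with a standard error of 0.09 (adjusted p = 5.22e-05), the largest in size among the members called in that comparison. The other *Gstm1* probe gave 0.55 and -0.57, with adjusted p = 0.0011 and 0.0017.

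*Gstm2* had ratios of 0.35, 0.47, 0.49 and 0.41 at 4 weeks and of -0.14, -0.42 and -0.60 at 8 weeks. It was higher than control by 0.43 ± 0.07 (adjusted p = 0.0037) at 4 weeks and lower by 0.39 ± 0.24 (adjusted p = 0.011) at 8 weeks. The 8-week call was lost without replicate 2 (adjusted p = 0.065) or replicate 3 (0.053) of 8 weeks. With the mean of its 3 probes the 8-week ratio was -0.23 (adjusted p = 0.076), as the other probes gave -0.21 and -0.10.

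*Gstm3* had ratios of -0.06, 0.48, 0.70 and 0.51 at 4 weeks and of -0.43, -0.65 and -0.54 at 8 weeks. Replicate 1 of 4 weeks stood apart from the other arrays of its time, as it also did in *Gstm4*. The mean was 0.41 ± 0.33 (adjusted p = 0.025) at 4 weeks and -0.54 ± 0.11 (adjusted p = 0.015) at 8 weeks. The 4-week call was lost without replicate 2, 3 or 4 (adjusted p = 0.079, 0.085 and 0.083), and the 8-week call without replicate 2 or 3 of 8 weeks (0.092 and 0.064). Every array of 8 weeks was below every array of 4 weeks, and the difference was -0.95 with a standard error of 0.17 (adjusted p = 0.0059).

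The other mu genes changed less. *Gstm5* gave 0.03, 0.07, 0.07 and -0.03 at 4 weeks and -0.26, -0.24 and -0.43 at 8 weeks, so that it fell at 8 weeks only, by 0.31 ± 0.10 (adjusted p = 0.0042), with a tested difference of -0.34 (adjusted p = 0.011). *Gstm7* gave -0.16, -0.01, -0.04 and -0.02 at 4 weeks and 0.18, -0.17 and 0.29 at 8 weeks, and passed no test. *Gstm4* and *Gstm6* were within ± 0.2 of 0 in their means at both times and were not called. Without replicate 1 of 4 weeks, *Gstm4* had an adjusted p of 0.012 at 4 weeks (0.26) and 0.029 at 8 weeks (-0.19). Mu-class transcripts are alike in sequence, so a share of the signal on each of these probes may come from a neighbour in the cluster.

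**Figure D2:**
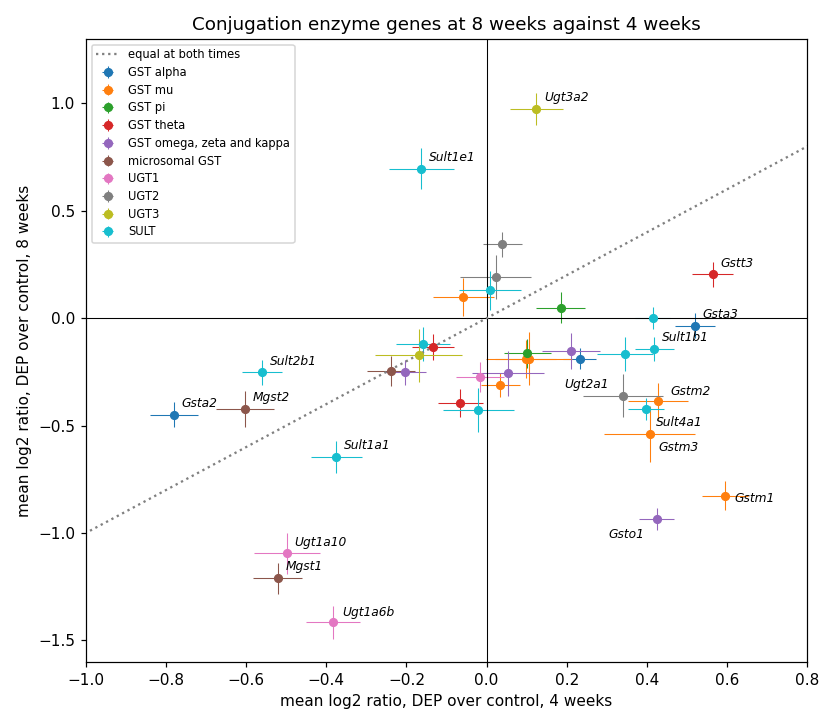
Mean log2 ratio of DEP over control at 8 weeks (y axis) against 4 weeks (x axis), 1 point per tested gene coloured by enzyme class, with standard errors from the model and a dotted line where both are equal. Gstm1 (0.59 and -0.83) and Gsto1 (0.42 and -0.94) lie at the lower right, Mgst1, Ugt1a10 and Ugt1a6b in the lower left, and Ugt3a2 (0.12 and 0.97) and Sult1e1 (-0.16 and 0.70) at the top. Sult5a1 is not drawn because 1 array sets its mean.

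*Gsto1*, whose enzyme reduces dehydroascorbate and methylated arsenic rather than conjugating most substrates, followed the pattern of *Gstm1*. Its ratios were 0.45, 0.40, 0.48 and 0.36 at 4 weeks and -0.88, -0.96 and -0.97 at 8 weeks. It was higher than control by 0.42 ± 0.05 (adjusted p = 0.00033), 1.34-fold, at 4 weeks. At 8 weeks it was lower than control by 0.94 ± 0.05 (adjusted p = 9.99e-06), 1.91-fold. The difference of -1.36 had a standard error of 0.07 (adjusted p = 1.72e-05). Its neighbour *Gsto2* gave 0.40, 0.23, 0.15 and 0.05 at 4 weeks and -0.32, -0.13 and -0.01 at 8 weeks, with control signal well above background on only 1 array of 4 weeks. It passed at neither time (adjusted p = 0.054 and 0.19), and its difference of -0.36 (adjusted p = 0.041) was lost without replicate 1, 2 or 3 of 4 weeks or replicate 1 or 2 of 8 weeks (adjusted p = 0.063, 0.086, 0.063, 0.12 and 0.11).

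The mitochondrial and peroxisomal *Gstk1* was lower at both times, with ratios of -0.25, -0.14, -0.30 and -0.13 and then of -0.18, -0.26 and -0.33. Its falls of -0.20 ± 0.09 (adjusted p = 0.017) and -0.25 ± 0.07 (adjusted p = 0.013) were lost without replicate 3 of 4 weeks (0.072), and without replicate 2 or 3 of 8 weeks (0.069 and 0.064). *Gstz1*, an enzyme of tyrosine breakdown, averaged 0.05 and -0.26 and was not called, with an adjusted p of 0.035 at 8 weeks (-0.39) without replicate 1 of 8 weeks.

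Of the theta class, which acts on small halogenated compounds, *Gstt3* rose at 4 weeks and *Gstt1* fell at 8 weeks. *Gstt3* gave 0.58, 0.57, 0.62 and 0.48 at 4 weeks and 0.32, 0.11 and 0.18 at 8 weeks. The 4-week rise was 0.56 ± 0.06 (adjusted p = 0.00018), 1.48-fold. At 8 weeks it was 0.20 ± 0.11 (adjusted p = 0.03), but the sign turned with median centring (-0.13, adjusted p = 0.25), and the call was lost without any of the 3 arrays of 8 weeks (0.14, 0.056 and 0.076) or without replicate 2 of 4 weeks (0.051). *Gstt1* gave 0.07, -0.15, -0.01 and -0.18 at 4 weeks and -0.32, -0.39 and -0.47 at 8 weeks, and fell by 0.40 ± 0.08 at 8 weeks (adjusted p = 0.0027). *Gstt2* gave -0.29, -0.07, -0.05 and -0.12 and then -0.11, -0.15 and -0.14, below 0 on all arrays, and was called at neither time (adjusted p = 0.082 and 0.12).

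The pi class, the main GST of many epithelia, moved little. *Gstp1* gave 0.04, 0.25, 0.29 and 0.15 at 4 weeks and 0.10, -0.09 and 0.14 at 8 weeks. Its 4-week mean of 0.18 ± 0.11 (adjusted p = 0.048) was at the limit of the call and lost it under 13 of 17 alternatives, with adjusted p from 0.051 to 0.16 without replicate 2, 3 or 4 of 4 weeks or any array of 8 weeks. *Gstp2* gave -0.01, 0.16, 0.11 and 0.15 and then -0.08, -0.09 and -0.33, and was not called (adjusted p = 0.21 and 0.097). The other *Gstp1* probe was lower at 8 weeks (-0.27, adjusted p = 0.039), and these 2 genes are near-identical copies, so their probes may not separate them.

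The microsomal GSTs, membrane enzymes outside the soluble GST family, fell at both times in all 3 tested genes. Over all genes tested, 16.5% fell at 4 weeks and 17% at 8 weeks. *Mgst1*, an abundant enzyme of the endoplasmic reticulum and outer mitochondrial membrane that protects membranes from peroxidation, gave -0.54, -0.44, -0.50 and -0.61 at 4 weeks and -1.11, -1.12 and -1.40 at 8 weeks. Every array was below 0, and the 8-week arrays were all below the 4-week arrays. It fell by 0.52 ± 0.07 (adjusted p = 0.00065), 1.44-fold, at 4 weeks and by 1.21 ± 0.17 (adjusted p = 1.56e-05), 2.31-fold, at 8 weeks. The difference was -0.69 with a standard error of 0.09 (adjusted p = 0.0017), and the other *Mgst1* probe gave -0.48 and -1.11.

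*Mgst2*, which can form leukotriene C4, gave -0.77, -0.53, -0.58 and -0.52 at 4 weeks and -0.60, -0.45 and -0.22 at 8 weeks. It fell by 0.60 ± 0.12 (adjusted p = 0.00068) and 0.42 ± 0.19 (adjusted p = 0.0065), and the times overlapped. *Mgst3* gave -0.32, -0.19, -0.27 and -0.18 and then -0.20, -0.11 and -0.42. Its means of -0.24 ± 0.06 (adjusted p = 0.017) and -0.24 ± 0.16 (adjusted p = 0.027) lost the call without replicate 3 of 4 weeks (0.056) and without replicate 1 or 3 of 8 weeks (0.065 and 0.12). The other *Mgst3* probe gave -0.12 (adjusted p = 0.29) and -0.54 (adjusted p = 0.0046).

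The UGT1 genes lie at 1 locus on chromosome 1, where each has its own first exon and all share the remaining exons. Of the 3 tested, 2 fell at 4 weeks and all fell at 8 weeks, against 16.5% and 17% of all genes. *Ugt1a6b* (chr1:88103257-88218998), of the group that glucuronidates small phenols, gave -0.20, -0.33, -0.47 and -0.53 at 4 weeks and -1.54, -1.33 and -1.38 at 8 weeks. The 8-week arrays were all below the 4-week arrays. It fell by 0.38 ± 0.15 (adjusted p = 0.0037) and by 1.42 ± 0.11 (adjusted p = 1.02e-05), a 2.67-fold change and the lowest mean of the 41 members at 8 weeks. The difference was -1.03 with a standard error of 0.10 (adjusted p = 0.00039). Its other probe, near background, gave -0.10 and -0.15 and was not called.

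*Ugt1a10* gave -0.77, -0.38, -0.32 and -0.52 at 4 weeks and -1.11, -1.24 and -0.94 at 8 weeks. It fell by 0.50 ± 0.20 (adjusted p = 0.003), 1.41-fold, and by 1.09 ± 0.15 (adjusted p = 0.00012), 2.14-fold. The other probe agreed in direction, with -0.70 and -1.36. The difference of -0.60 (adjusted p = 0.011) had an adjusted p of 0.051 without replicate 2 of 8 weeks. *Ugt1a6a* gave 0.10, -0.10, -0.10 and 0.04 at 4 weeks, and the sign of its mean turned with the scaling. At 8 weeks it gave -0.41, -0.17 and -0.24 (adjusted p = 0.018). Its DEP signal was then not well above background on any array, and its control signal on only 2 of 3. The bound on its mean was a 1.2-fold fall, which sets no lower limit for a single array. The call was lost without replicate 1 (0.089) or replicate 3 (0.053) of 8 weeks. With the processed signals of the scanner software its 8-week ratio was -1.12 (adjusted p = 0.014). Because the shared exons are in all transcripts of the locus, a probe there would not separate these genes, and the position of the probes was not used here.

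In the UGT2 family, *Ugt2a1*, the UGT first known from the olfactory epithelium, gave 0.11, 0.41 and 0.49 on replicates 1, 3 and 4 of 4 weeks, with the spot of replicate 2 left out as not uniform. At 8 weeks it gave -0.57, -0.19 and -0.33. The signs were opposite on every array of the times. The means of 0.34 ± 0.20 (n = 3, adjusted p = 0.036) and -0.36 ± 0.19 (adjusted p = 0.03) lost the call without replicate 3 or 4 of 4 weeks (0.13 and 0.15 at 4 weeks), without replicate 3 of 8 weeks (0.058 at 4 weeks) and without any array of 8 weeks at 8 weeks (0.14, 0.052 and 0.092). The difference of -0.70 (standard error 0.14, adjusted p = 0.012) was called under every alternative.

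*Ugt2a3* gave 0.05, 0.06, -0.05 and 0.09 and then 0.39, 0.40 and 0.24, and rose at 8 weeks by 0.34 ± 0.09 (adjusted p = 0.0028). Its control signal was well above background on only 1 array of 4 weeks. With the processed signals of the scanner software its 4-week ratio was 0.47 (adjusted p = 0.0635). Its difference of 0.30 (adjusted p = 0.019) was lost without replicate 3 of 4 weeks (0.051) and without replicate 1 (0.053) or 2 (0.082) of 8 weeks. *Ugt2b37* gave 0.32, -0.23, 0.04 and -0.04 and then 0.04, 0.32 and 0.21, was not well above background at 4 weeks in either channel, and was not called. *Ugt3a2*, of a family that uses other sugars than glucuronic acid, gave 0.27, 0.23, -0.05 and 0.05 at 4 weeks, when its control signal was not well above background on any array. At 8 weeks it gave 0.95, 0.90 and 1.08. It rose at 8 weeks by 0.97 ± 0.10 (adjusted p = 6.56e-05), 1.96-fold, the highest mean of the 41 members at either time, and the difference between the times was 0.85 (adjusted p = 0.00089). The other *Ugt3a2* probe was not well above background on any array and was not tested, so the rise rests on 1 probe. With the processed signals the 4-week ratio of *Ugt3a2* was 0.67 (adjusted p = 0.012), so its size at 4 weeks depends on the processing. *Ugt3a1* gave -0.47, 0.02, -0.03 and -0.20 and then 0.01, -0.03 and -0.51, was not well above background at 4 weeks, and was not called.

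Of the 11 tested SULT genes, 4 rose and 2 fell at 4 weeks, against 21.6% and 16.5% of all genes. At 8 weeks 1 rose and 4 fell, against 20.3% and 17% of all genes. *Sult1e1*, the oestrogen sulfotransferase, was the gene that rose at 8 weeks. It gave -0.32, -0.05, -0.23 and -0.05 at 4 weeks and 0.45, 0.73 and 0.91 at 8 weeks, below 0 on all arrays of the first and above 0 on all of the second. The 8-week mean was 0.70 ± 0.23 (adjusted p = 0.0011), 1.62-fold, and the difference was 0.86 (standard error 0.12, adjusted p = 0.0022).

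*Sult4a1*, a mostly neuronal member without a well-established substrate, gave 0.42, 0.40, 0.40 and 0.38 at 4 weeks and -0.33, -0.49 and -0.46 at 8 weeks. It was higher than control by 0.40 ± 0.02 (adjusted p = 0.0005) at 4 weeks and lower by 0.42 ± 0.09 (adjusted p = 0.00067) at 8 weeks. The difference was -0.82 (adjusted p = 0.00018). The other *Sult4a1* probe, near background, gave -0.07 at 4 weeks (adjusted p = 0.47) and -0.29 at 8 weeks (adjusted p = 0.035), so the 4-week rise rests on 1 probe.

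*Sult1b1*, which acts on thyroid hormones, gave 0.49, 0.43, 0.41 and 0.34 and then -0.22, -0.15 and -0.05. It rose at 4 weeks by 0.42 ± 0.06 (adjusted p = 0.0006), and its 8-week mean was -0.14 ± 0.09 (adjusted p = 0.087). *Sult1d1*, next to it on chromosome 5 and active on catecholamines in mice, gave 0.39, 0.40, 0.39 and 0.46 and then -0.04, 0.08 and -0.03. It rose at 4 weeks by 0.41 ± 0.03 (adjusted p = 0.00038), and its 8-week mean of 0.00 turned to -0.29 (adjusted p = 0.0071) with median centring. The other *Sult1d1* probe gave 0.08 and 0.11 and was not called. *Sult6b1* gave 0.39, 0.30, 0.30 and 0.38 and then -0.39, -0.15 and 0.04. With control signal not well above background on any array of 4 weeks, it was at least 1.1-fold higher then (0.35 ± 0.05, adjusted p = 0.0066).

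*Sult1a1*, the main sulfotransferase for phenols, was lower at both times, with -0.51, -0.35, -0.27 and -0.37 and then -0.58, -0.82 and -0.55. It fell by 0.37 ± 0.10 (adjusted p = 0.0032) and 0.65 ± 0.15 (adjusted p = 0.00044), and the other probe gave -0.31 and -0.44. *Sult2b1*, which sulfates cholesterol in stratified epithelium, gave -0.54, -0.61, -0.54 and -0.55 and then -0.13, -0.35 and -0.28. It fell by 0.56 ± 0.03 (adjusted p = 0.00015) at 4 weeks and by 0.25 ± 0.11 (adjusted p = 0.011) at 8 weeks, the latter with an adjusted p of 0.082 without replicate 2 of 8 weeks.

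*Sult5a1* gave 0.24, -7.47, 0.17 and -0.62 at 4 weeks and 0.12, -0.18 and -0.28 at 8 weeks. Its mean of -1.92 ± 3.72 is set by replicate 2 of 4 weeks and was not called (adjusted p = 0.23). On that array the log2 control level was 14.6, against 7.04 to 8.08 on the other arrays of 4 weeks. The DEP level was 7.13, against 7.27 to 7.46, so the value comes from 1 bright control spot. *Sult1c1*, *Sult1c2* and *Sult2a8* had 4-week means of -0.02, 0.01 and -0.16 that were not called. *Sult1c1* fell at 8 weeks (-0.43 ± 0.10, adjusted p = 0.014), a call lost without replicate 1 (0.064) or 3 (0.0745) of 8 weeks, and *Sult2a8* had an adjusted p of 0.018 at 4 weeks (-0.24) without replicate 1 of 4 weeks.

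The signal of each channel, put on 1 scale by quantile normalization of the average intensities of the arrays, shows which RNA differed between the slides. These levels compare arrays of different slides, ages and times, and were not tested. For *Gstm1*, the log2 level in DEP tissue lay between 13.42 and 13.85 at 4 weeks and between 13.03 and 13.27 at 8 weeks, while that of control tissue lay between 12.91 and 13.13 and then between 13.99 and 14.01. For *Gsto1*, DEP tissue went from between 13.75 and 14.02 to between 13.34 and 13.39, and control tissue from between 13.27 and 13.56 to between 14.26 and 14.37. In both genes the control level at 8 weeks was above every control array of 4 weeks. The DEP level at 8 weeks was below every DEP array of 4 weeks. The share of all genes whose levels separate in this way is not given here.

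The UGT1 genes and *Sult4a1* had another pattern. The mean control level of *Ugt1a6b* was 13.46 at 4 weeks and 13.50 at 8 weeks, and its mean DEP level was 13.08 and 12.08. The mean control level of *Ugt1a10* was 8.23 and 8.26, and its DEP level 7.73 and 7.16. The mean control level of *Sult4a1* was 10.51 and 10.47, and its DEP level 10.91 and 10.05. In these 3 genes the control levels of the times were within 0.04 of each other on the log2 scale and the DEP levels were not.

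For *Gsta3* the DEP level was 12.01 and 12.10 while the control level was 11.49 and 12.13, and for *Ugt2a1* the DEP level was 12.54 and 12.78 while the control level was 12.20 and 13.14. *Sult1b1* had a DEP level of 7.83 and 8.35 and a control level of 7.42 and 8.49. In these 3 genes the control level differed more between the times than the DEP level. Over the 41 members the median change from 4 to 8 weeks was 0.25 in control tissue and 0.15 in DEP tissue, and over all tested genes it was 0.02 in both.

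**Figure D3:**
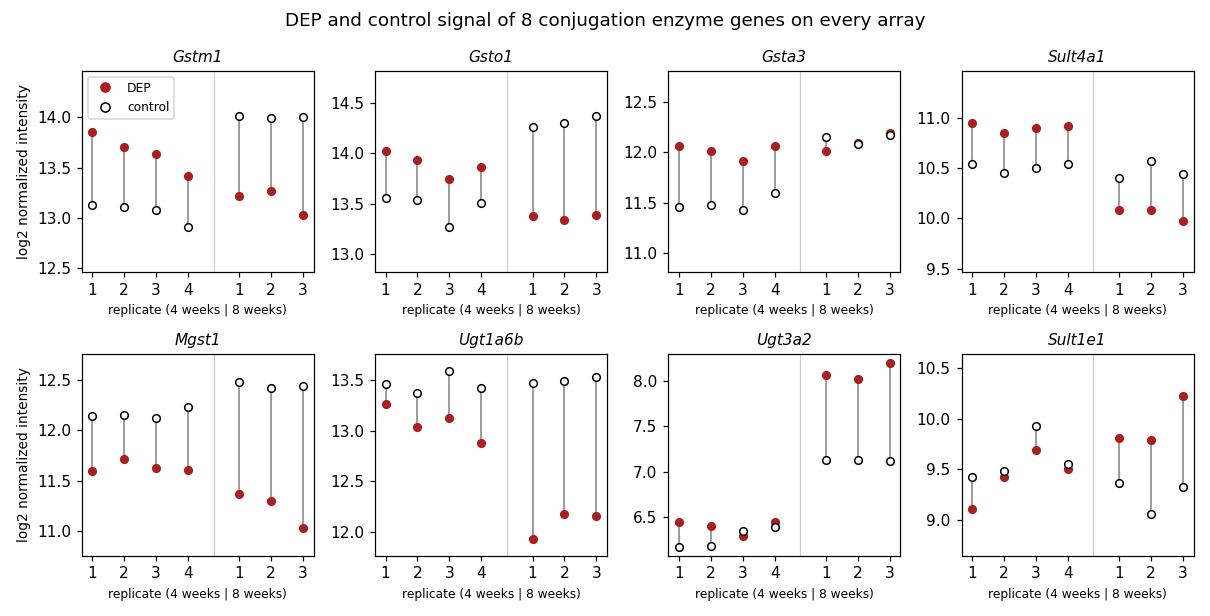
Log2 normalized intensity (y axis) of DEP tissue (filled) and control tissue (open) on each array (x axis, 4 arrays of 4 weeks, then 3 of 8 weeks) for 8 conjugation genes, with a line joining the channels of an array. The control points of Gstm1 and Gsto1 are higher at 8 weeks than at 4 weeks and their DEP points are lower. For Ugt1a6b and Sult4a1 the DEP points are lower and the control points are level. The y axes span different ranges, and levels of different genes are not comparable.

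Other genes of the conjugation pathway were counted in the same way. Of all genes tested, 21.6% rose and 16.5% fell at 4 weeks (38.1% in either direction). At 8 weeks 20.3% of all genes rose and 17% fell (37.3% in either direction). The lists below are small, and their counts were not tested against these shares. Of 9 tested genes that supply the cofactors of glucuronidation and sulfation, 2 rose and 4 fell at 4 weeks, and 1 rose and 3 fell at 8 weeks. *Slc35d1*, which carries UDP-sugars into the endoplasmic reticulum, rose by 0.92 ± 0.16 at 4 weeks (adjusted p = 0.0001), and the sulfate transporter *Slc26a1* fell by 1.20 ± 0.27 (adjusted p = 0.00014). *Ugdh*, which makes UDP-glucuronic acid, fell by 0.82 ± 0.22 at 8 weeks (adjusted p = 0.00099). *Papss2*, which makes PAPS, was higher than control by 0.39 ± 0.09 (adjusted p = 0.00085) at 4 weeks and lower by 0.47 ± 0.03 (adjusted p = 0.00066) at 8 weeks.

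A list for glutathione synthesis, reduction and breakdown and for cystine uptake held 8 tested genes. Of these, 1 rose and 2 fell at 4 weeks, and 1 rose and 3 fell at 8 weeks. The gene that rose was *Gsr*, the glutathione reductase, by 0.23 ± 0.11 (adjusted p = 0.017) and 0.21 ± 0.10 (adjusted p = 0.041). *Ggct*, of glutathione breakdown, fell by 0.51 ± 0.04 (adjusted p = 0.00058) and 1.13 ± 0.17 (adjusted p = 1.75e-05), and the cystine transporter *Slc7a11* by 0.56 ± 0.03 (adjusted p = 0.00014) and 0.79 ± 0.11 (adjusted p = 3.88e-05). *Gclc*, the catalytic subunit of the first step of glutathione synthesis, had means of -0.14 ± 0.14 and -0.01 ± 0.08 and was not called. Its partner *Gclm* fell at 8 weeks by 0.51 ± 0.10 (adjusted p = 0.00049).

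Of 6 tested epoxide hydrolases and quinone reductases, 3 rose and 3 fell at 4 weeks, and none rose and 4 fell at 8 weeks. *Nqo1*, a quinone reductase under Nrf2 and AhR control, rose by 0.27 ± 0.08 (adjusted p = 0.012) at 4 weeks. At 8 weeks it was lower than control by 0.75 ± 0.17 (adjusted p = 0.0002). The soluble epoxide hydrolase *Ephx2* fell by 0.64 ± 0.05 (adjusted p = 4.38e-05) and 0.84 ± 0.05 (adjusted p = 1.65e-05). Of 5 tested export pumps for conjugates, 4 rose and 1 fell at 4 weeks, and none rose and 2 fell at 8 weeks. *Abcc5* rose by 0.63 ± 0.06 (adjusted p = 4.92e-05) at 4 weeks, and *Abcg2* fell by 0.37 ± 0.08 (adjusted p = 0.0012) and 1.00 ± 0.08 (adjusted p = 1.44e-05).

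A list for the removal of conjugates held 6 tested genes, *Arsa*, *Arsb*, *Arsg*, *Gusb*, *Sumf1* and *Sumf2*. Whether their products act on conjugates made by the member enzymes was not tested, and *Sts* had no probe under its name. Of the 6, 2 rose and none fell at 4 weeks, and none rose and 3 fell at 8 weeks. Those that fell were the sulfatase *Arsa* (-0.55 ± 0.10, adjusted p = 0.00031), *Arsg* (-0.40 ± 0.11, adjusted p = 0.0035) and *Gusb* (-0.30 ± 0.02, adjusted p = 0.0022). *Gusb* was higher at 4 weeks (0.16 ± 0.04, adjusted p = 0.021). Of 11 tested genes of acetyl, methyl and glycine conjugation, 2 rose and 4 fell at 4 weeks, and 1 rose and 2 fell at 8 weeks. *Acsm1*, a medium-chain acyl-CoA synthetase, rose by 0.95 ± 0.12 at 4 weeks (adjusted p = 2.95e-05), and *Hnmt*, which methylates histamine, fell by 0.55 ± 0.08 (adjusted p = 0.00032) and 0.48 ± 0.13 (adjusted p = 0.0011).

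Of 8 tested regulators, 1 rose and 1 fell at 4 weeks, and 3 rose and none fell at 8 weeks. *Nfe2l2*, the gene for Nrf2, had means of -0.08 ± 0.15 and -0.12 ± 0.29 and was not called. *Ahr* fell by 0.18 ± 0.06 at 4 weeks (adjusted p = 0.015) and had a mean of 0.08 ± 0.04 at 8 weeks. *Ppara*, the receptor for fatty acids, rose by 0.39 ± 0.06 (adjusted p = 0.00058) at 4 weeks and 0.22 ± 0.04 (adjusted p = 0.013) at 8 weeks, and *Nr1i3*, the gene for the xenobiotic receptor CAR, rose at 8 weeks by 0.54 ± 0.17 (adjusted p = 0.0044).

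Markers of nasal cell types were also counted. Of all genes, 38.1% were called in either direction at 4 weeks and 37.3% at 8 weeks. The marker counts were not tested against these shares. Of 9 tested markers of mature olfactory neurons, 6 rose and none fell at 4 weeks, and none rose and 8 fell at 8 weeks. *Omp* was higher than control by 0.89 ± 0.08 (adjusted p = 3.9e-05) at 4 weeks and lower by 0.43 ± 0.14 (adjusted p = 0.0024) at 8 weeks. The summed level of the 9 markers, in intensity units divided by 1000, was 149 to 164 in DEP tissue and 82.3 to 97.4 in control tissue at 4 weeks. At 8 weeks it was 97.4 to 102 and 136 to 152. Of 7 tested markers of sustentacular cells, 5 rose and 1 fell at 4 weeks, and 1 rose and 6 fell at 8 weeks. *Cyp2g1* was higher than control by 0.16 ± 0.11 (adjusted p = 0.047) at 4 weeks and lower by 0.50 ± 0.03 (adjusted p = 0.00058) at 8 weeks. *Ermn*, of the same list, rose by 1.70 ± 0.11 at 8 weeks (adjusted p = 2.4e-06). Their summed level was 111 to 135 against 86.5 to 96.6 at 4 weeks, and 109 to 116 against 154 to 178 at 8 weeks.

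Of 6 tested markers of Bowman's glands, 4 rose and 1 fell at 4 weeks, and 3 rose and 1 fell at 8 weeks, with summed levels of 176 to 191 against 115 to 130 and then of 197 to 262 against 107 to 127. The median ratio of this list was 0.40 at 4 weeks and 0.04 at 8 weeks, when *Obp2a* rose by 1.42 ± 0.45 (adjusted p = 0.00029) and *Gpx6* fell by 0.72 ± 0.10 (adjusted p = 0.0026), so the sum and the median differ. Of 7 tested markers of respiratory epithelium, 2 rose and 1 fell at 4 weeks, and 4 rose and none fell at 8 weeks, with summed levels of 121 to 145 against 107 to 126 and then of 174 to 195 against 145 to 164. *Foxj1* had a mean of -0.09 ± 0.30 at 4 weeks and rose by 0.47 ± 0.11 at 8 weeks (adjusted p = 0.02).

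Of 6 tested squamous markers, none rose and 5 fell at 4 weeks, and 2 rose and 2 fell at 8 weeks, with summed levels of 3.51 to 3.81 against 7.91 to 8.13 and then of 5.33 to 6.99 against 6.39 to 7.01. Of 5 tested markers of seromucous glands, 3 rose and 1 fell at 4 weeks, and 3 rose and 2 fell at 8 weeks, with summed levels of 59.9 to 73.1 against 29.1 to 31.2 and then of 13.5 to 14.9 against 22.8 to 24.9. The median ratio of this list was 0.73 and 0.28, and at 8 weeks *Smr3a* fell by 4.45 ± 0.04 (adjusted p = 4.735e-08) and *Dcpp1* by 2.00 ± 0.12 (adjusted p = 1.28e-06). The markers that rose at 8 weeks were *Bhlha15* (0.73), *Pip* (0.34) and *Lpo* (0.28). At 4 weeks *Lpo* (2.98), *Pip* (2.08) and *Bhlha15* (0.73) rose and *Dcpp1* fell (-0.51). Some tested markers were near 0 and not called, such as *Adcy3* at 4 weeks (0.05, adjusted p = 0.87) and *Scgb1a1* at 8 weeks (0.03, adjusted p = 0.78). The part of these cell types in the ratios of the conjugation genes was not tested.

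**Figure D4:**
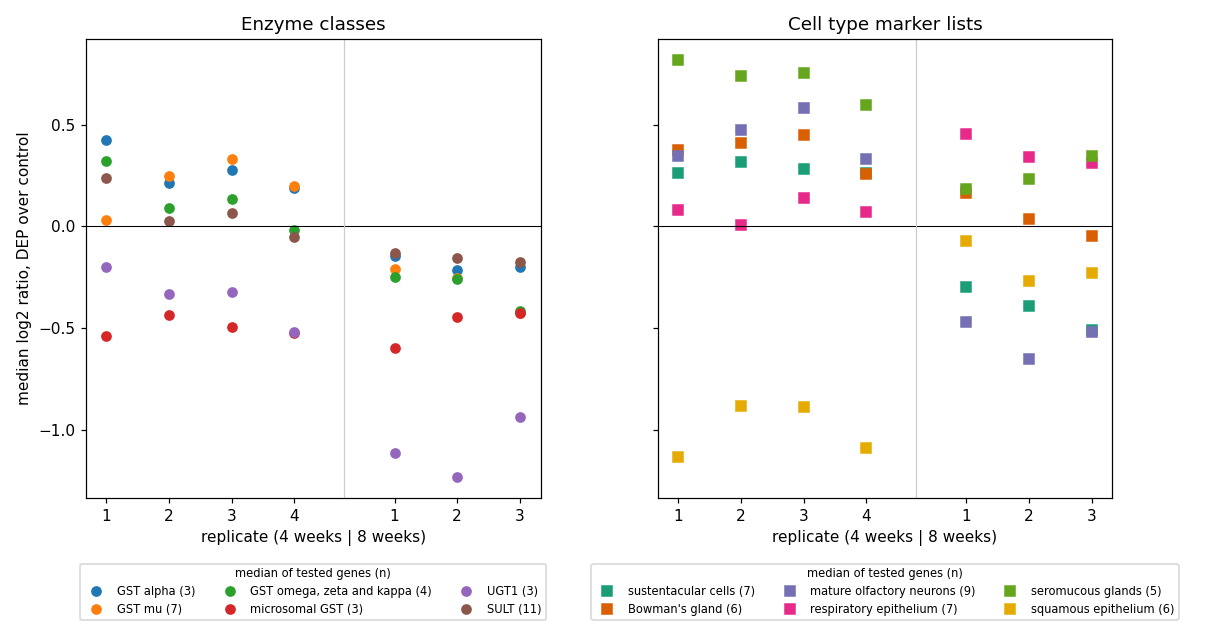
Median log2 ratio of DEP over control (y axis) on each array (x axis) of 6 enzyme classes on the left and of 6 lists of cell type markers on the right, with the number of tested genes in brackets. The medians of the alpha and mu classes and those of olfactory neuron and sustentacular markers are above 0 on all arrays of 4 weeks and below 0 on all arrays of 8 weeks, while the microsomal GSTs and UGT1 are below 0 on all 7 arrays. The alpha median of replicate 1 of 4 weeks leaves out Gsta2, whose spot was not used.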

How the data were processed

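Total RNA of nasal tissue was measured on 2-colour Agilent mouse 4x44K v2 arrays, 4 for 4 weeks and 3 for 8 weeks of DEP exposure. The authors deposited 1 output file of Agilent Feature Extraction 10.10.1.1 per array, whose spot and background values are intensity values before normalization, next to background-subtracted and dye-normalized intensity values and their log10 ratios. The deposited log10 ratios, which the software made from the processed signals of Cy5 over Cy3, entered no result. The normalization with GeneSpring that the methods name is not part of the values used here.

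Median intensities were corrected by normexp (offset 50, limma 3.58.1 in R 4.3.3), with parameters fitted without spots whose background the software marks as an outlier, because on replicate 2 of 4 weeks spots with a background far above their signal distorted the plain fit. Ratios were normalized by loess within arrays, non-uniform spots were left out, and spots of a probe were averaged. A probe was tested when 3 or more of the 7 arrays had it well above background for DEP or control RNA (25162 of 39429 probes), and a gene took its brightest tested probe. Names came through accessions from RefSeq (GRCm38.p6), which gave a symbol to 28330 probes. Channel levels were taken after quantile normalization of average intensities, and they served for the bounds against the lowest signal well above background. One limma model with a mean per exposure time tested each time and their difference, with Benjamini-Hochberg adjustment over all tested probes. The number of arrays limits the precision, and arrays have no counting error. The steps were tested on simulated data. Values on every array are given for members called with a log2 ratio of at least 0.58 in size, for those called in the difference between the times, and for the highest and lowest of each class. The members, lists and tests were chosen with earlier results of these data known. Alternatives covered the background correction, normalization, filter, probe rule, test, arrays fitted, each array left out and a replicate block. The methods name Student's test without saying how it was applied to ratios.

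Replicate numbers did not pair the arrays of the times, as the deviations of same-numbered arrays from their group means correlated at -0.0065, -0.0067 and 0.017.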

Additional observations from a re-analysis of the deposited data

Results flagged for a closer look

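On single arrays, 3 of 39 members measured on all 4 arrays of 4 weeks had 1 array far from the other 3, where chance flags about 1 in 20. *Sult5a1* was at -7.47 on replicate 2, against -0.62 to 0.24 on the others, and was not called. There the control signal, not the DEP signal, was far from that of the other arrays. *Sult2b1* was at -0.61 on replicate 2, against -0.55 to -0.54, and *Sult1d1* at 0.46 on replicate 4, against 0.39 to 0.40, which are small gaps in groups that vary little.

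The log2 ratio differed between 8 and 4 weeks, by limma's test of that difference, in 23 members. It was lower at 8 weeks by -1.42 for *Gstm1*, -1.36 for *Gsto1*, -1.03 for *Ugt1a6b*, -0.95 for *Gstm3*, -0.82 for *Sult4a1*, -0.81 for *Gstm2* and -0.70 for *Ugt2a1*. Smaller differences in that direction were -0.69 for *Mgst1*, -0.60 for *Ugt1a10*, -0.56 for *Sult1b1*, -0.55 for *Gsta3*, -0.51 for *Sult6b1*, -0.42 for *Gsta4*, -0.41 for *Sult1d1*, -0.36 for *Gsto2*, -0.36 for *Gstt3*, -0.34 for *Gstm5* and -0.33 for *Gstt1*. It was higher at 8 weeks by 0.86 for *Sult1e1*, 0.85 for *Ugt3a2*, 0.33 for *Gsta2*, 0.31 for *Sult2b1* and 0.30 for *Ugt2a3*. Leaving out 1 array took away the call of the difference for *Gsto2*, *Ugt1a10* and *Ugt2a3*, as given with those genes, and for *Gsta2* (replicates 2, 3 and 4 of 4 weeks and 2 and 3 of 8 weeks, adjusted p = 0.062 to 0.089), *Gstt1* (replicate 3 of 4 weeks and 2 and 3 of 8 weeks, 0.058 to 0.078), *Gstt3* (replicate 2 of 8 weeks, 0.057) and *Sult2b1* (replicate 2 of 4 weeks, 0.054). Exposure time and slide cannot be told apart in any of them.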

How the results depend on the processing

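Over all alternatives, 1879 of 2061 values of single members kept their side of the threshold, 131 lost the call and 48 gained one. Of the 1879, 1825 kept their direction and 54, from 19 results that were called neither in the first place nor then, turned sign. Another 3 turned sign with a call on one side, at 8 weeks with median centring, -0.28 for *Gstp1*, -0.13 for *Gstt3* and -0.29 for *Sult1d1*. The 4 members higher at 8 weeks were 2 when the filter asked for detection of both RNAs on every array, and 0 with the methods' t-test, and the 20 lower members were 32 with median centring and 0 with the methods' t-test. That test has only the 3 arrays of 8 weeks, called 393 of all genes at an adjusted p of at most 0.05, and put 19 members at an unadjusted p under 0.05. At both of the study's thresholds it gave 0 members at 4 weeks and 3 at 8 weeks, and 252 and 509 genes in all. Leaving out 1 array gave 10 to 14 higher and 7 to 10 lower members at 4 weeks, 3 to 4 higher and 13 to 22 lower at 8 weeks (13 without replicate 3 of 8 weeks), and 17 to 25 that differed between the times. A replicate block, though the numbers pair nothing, left 15 members that differed, against 23. The counts for the filter, the arrays left out and the block are given without the share of all genes called in the same setting. The 19 members at an unadjusted p under 0.05 are also given without that share. These counts do not show whether the members moved more than other genes. Another scaling moved the share of higher genes among all called genes from 56.7% to 42.5% (median centring) or 67.9% (processed signals) at 4 weeks and from 54.6% to 27% or 51% at 8 weeks, and the median of all genes to between -0.11 and 0.09. With the processed signals, *Sult6b1* passed both of the study's thresholds at 4 weeks and *Ugt3a2* and *Ugt1a6a* did so at 8 weeks. Members near background have no reliable ratio.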
